A study of Mus musculus with 4 samples.

Results

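The Fc gamma receptors of the mouse were followed across the leukocytes of YUMMER1.7 melanomas from mice that all received antibody. The set holds 5 of the 32285 genes counted: the receptor genes Fcgr1, Fcgr2b, Fcgr3 and Fcgr4, and Fcer1g, which encodes the signaling chain that the activating receptors share. They are chosen by name, and neither the rule nor the gates below use their values. Their UMIs, each a captured transcript molecule counted once, were read in 4 lineages gated on other genes: T cells with a UMI of Cd3e, NK cells with a UMI of Ncr1, mature DCs with UMIs of Ccr7 and Fscn1, and monocytes/macrophages with a UMI of Lyz2 and of Ly6c2 or C1qb.

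Wild-type male C57BL/6J mice, 7 to 8 weeks old, carried subcutaneous tumors of the transplanted mouse melanoma line YUMMER1.7 and were treated intraperitoneally from 7 days after implantation. The isotype control arm received IgG1. The other arms received RMP1-14 against PD-1 at 10 mg/kg, IIID.9 against the cytokine MIF at 20 mg/kg, or both, so that no arm was free of injected antibody. Tumors were taken after 4 doses over 2 weeks (long treatment, day 21) or 2 doses over 1 week (short treatment, day 14), sorted for CD45 and recombined to 80% CD45+ and 20% CD45- cells. Values of arms are listed below in the order isotype, anti–PD-1, anti-MIF, anti–PD-1/anti-MIF unless stated. Arms were labeled with hashtag antibodies and pooled into 1 library per cohort. Each arm is therefore 1 sample in which the mice cannot be told apart, and time, number of doses and library cannot be told apart between cohorts.

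The long treatment library held 2516 barcodes with 23702910 UMIs and the short treatment library 4987 barcodes with 31799441 UMIs. Of the barcode sequences, 20 occurred in both libraries. Among the cells kept in the 4 arms, 2685 passed the monocyte/macrophage gate, 539 the T cell gate, 148 the mature DC gate and 136 the NK gate, while 1224 passed none and 58 passed more than 1 and were left out. Monocyte/macrophage-gated cells numbered 82, 124, 488 and 130 in the arms of the long cohort, while the short cohort held 459, 820, 330 and 252. Only 4 arms held at least 10 NK cells, and only 4 held at least 10 mature DCs. Of the markers that no gate used, all 5 of the NK list were detected in NK-gated cells of both cohorts, led by Gzma, and all 7 of the monocyte/macrophage list in monocyte/macrophage-gated cells, led by C1qa under long and Plac8 under short treatment. The sums that follow include the gate markers, and Cd3e is at 0 outside T cells by the gate. The 6 T cell markers summed to 3.1 CPM (UMIs per 1000000 UMIs of the summed cells) in monocyte/macrophage-gated cells of the long cohort and 5.1 CPM in the short cohort, against 5040 and 4461 CPM in T cells. The 10 monocyte/macrophage markers summed to 93.4 and 163 CPM in mature DCs. They summed to 1222 and 1183 CPM in NK cells, led by Plac8, and to 1120 and 2168 CPM in T cells, led by Ly6c2, genes that lymphocytes also express.

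Fc gamma receptors bind the constant part of IgG and link antibody to leukocyte responses. Fcgr1 encodes the high-affinity receptor, and Fcgr3 and Fcgr4 encode activating receptors of lower affinity. All of them signal through the ITAM of the common gamma chain Fcer1g, which recruits Syk after Src family kinases such as Lyn have phosphorylated it. Fcgr2b carries an ITIM in its own tail, recruits the phosphatase Inpp5d (SHIP1) and dampens the same signal. In tumors these receptors are best known on macrophages and NK cells, where they decide what happens to cells coated with therapeutic antibody.

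On GRCm38, with GENCODE vM21 models, 4 of the 5 genes lie within 275.749 kb of chromosome 1. Fcgr2b (ENSMUSG00000026656) spans chr1:170958617-170976547 on the minus strand, Fcgr4 (ENSMUSG00000059089) chr1:171018920-171029761 on the plus strand, Fcgr3 (ENSMUSG00000059498) chr1:171051174-171064935 and Fcer1g (ENSMUSG00000058715) chr1:171229572-171234365, both on the minus strand. Fcgr3 and Fcgr4 are 21413 bases apart. Fcgr1 (ENSMUSG00000015947) lies on its own at chr3:96282909-96293969 on the minus strand. Fcgr2b overlaps the antisense gene Gm38204, and the strand setting of the counting is not given in the sources used here. Of the 90-base windows in the coding transcripts of Fcgr2b, 3.18% also occur in transcripts of other genes, Fcgr3 among them, and 3.93% of those of Fcgr3 occur in Fcgr2b. In the first 500 bases, nearer to the 5′ ends that were read, Fcgr2b shared 1.48% with Fcgr3 and Fcgr3 5.11% with Fcgr2b, so a small part of their reads cannot be assigned to 1 gene.

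Because the genes are active in the same cells, the 80 bases before each RefSeq start (GRCm38.p6) are shown, read on the strand of the gene from 5′ to 3′. All 5 genes were found in the RefSeq promoter table. Capitals mark GAGGAA or its reverse complement TTCCTC, the purine-rich word bound by PU.1, a factor of the ETS family that myeloid cells depend on.
Fcgr1, chr3:96293970-96294049: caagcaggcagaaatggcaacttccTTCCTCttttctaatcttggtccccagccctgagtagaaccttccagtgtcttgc
Fcgr2b, chr1:170976072-170976151: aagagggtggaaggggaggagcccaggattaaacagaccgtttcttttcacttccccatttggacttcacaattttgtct
Fcgr3, chr1:171059404-171059483: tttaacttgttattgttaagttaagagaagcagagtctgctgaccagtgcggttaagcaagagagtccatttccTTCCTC
Fcgr4, chr1:171018846-171018925: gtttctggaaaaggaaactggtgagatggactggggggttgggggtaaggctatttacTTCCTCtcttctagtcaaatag
Fcer1g, chr1:171234350-171234429: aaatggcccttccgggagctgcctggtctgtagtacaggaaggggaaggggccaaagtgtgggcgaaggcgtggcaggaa

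The word stood in the 3 activating receptor genes, beginning 55 bases before the start of Fcgr1, 6 bases before the first of the 2 starts listed for Fcgr3 and 22 bases before that of Fcgr4, in each case as TTCCTC. It was in neither Fcgr2b nor Fcer1g, also when 250 bases were searched. Among 32851 RefSeq promoters, 7.97% held it on either strand within 80 bases and 23.3% within 250 bases. The STAT site TTCNNNGAA, which reads the same on both strands, occurred only before Fcgr1 among the 5, at 109 bases, and in 7.02% of all promoters within 250 bases. The matches describe these letters alone.

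Among the 4 gated lineages, all 4 receptor genes were expressed mainly in monocyte/macrophage-gated cells, and Fcer1g in these and in NK cells. The 1224 cells that passed none of these gates also held them, some belonging to the smaller groups given below. Pooled, they measured 186 CPM of Fcgr1, 292 of Fcgr2b, 225 of Fcgr3, 92.8 of Fcgr4 and 1954 of Fcer1g. Over the 8 arms, Fcgr1 lay between 296 and 549 CPM in monocytes/macrophages with a median of 429, Fcgr2b between 435 and 803 with a median of 532, Fcgr3 between 476 and 703 with a median of 499.5, and Fcgr4 between 116 and 276 with a median of 236. Fcer1g lay between 2899 and 3989 CPM with a median of 3587. Every arm of every other lineage was below the lowest monocyte/macrophage arm for the 4 receptors, while for Fcer1g the highest NK arm overlapped this range. The 5′ UMIs count molecules and were not divided by gene length.

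**Figure D1:**
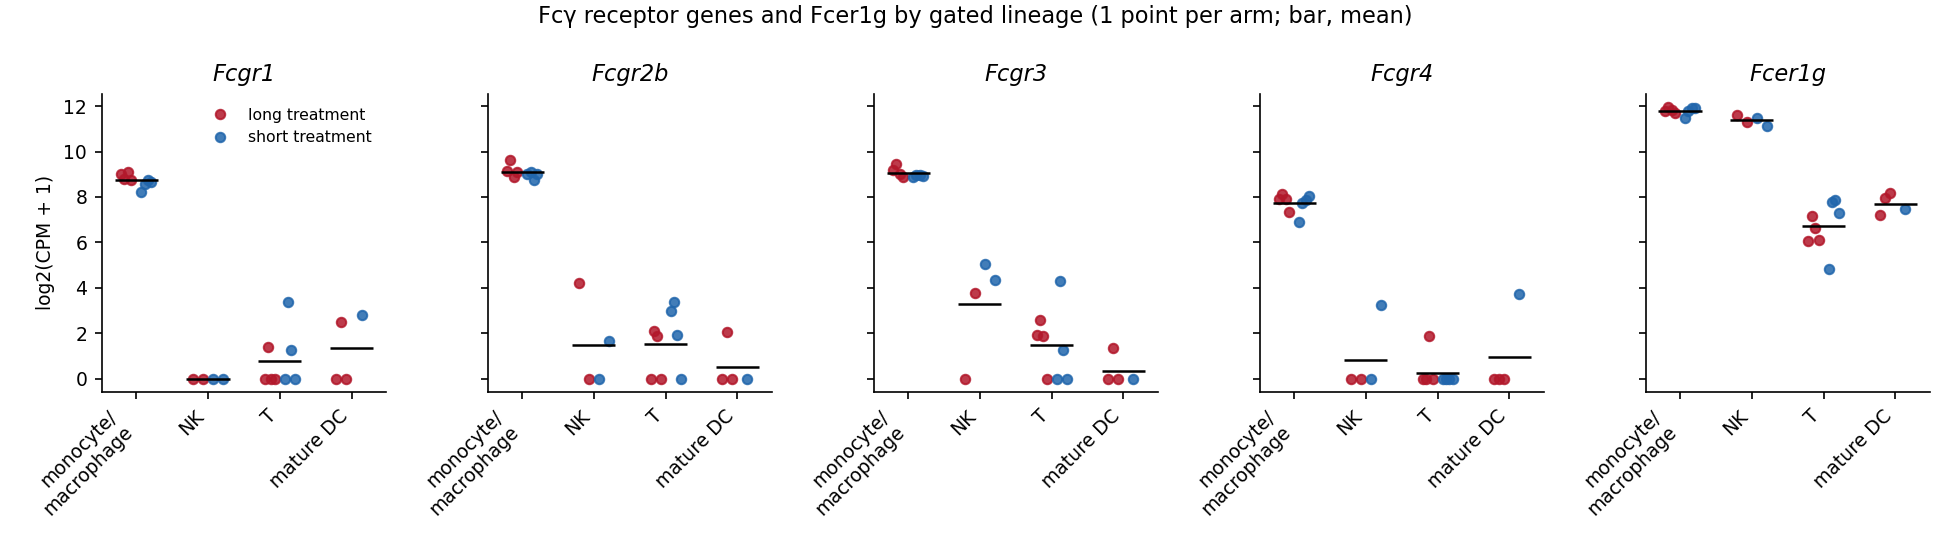
Levels of the 5 genes as log2(CPM + 1) by gated lineage, with 1 point per hashtag arm that held at least 10 cells, colored by cohort, and a bar at the mean of the arms. Receptor values of T cells, NK cells and mature DCs reach at most 32.5 CPM, and Fcer1g of NK cells sits just under that of monocytes/macrophages.

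Against T cells, all 5 genes passed the quasi-likelihood test of edgeR with Benjamini-Hochberg adjustment over the 8363 genes tested between lineages, of which 61.3% were called, 31.7% as higher in monocytes/macrophages and 29.6% as lower. The log2 differences were 8.46 (SE 0.31, adjusted p = 9.33e-20) for Fcgr1, 7.85 (SE 0.26, adjusted p = 3.47e-22) for Fcgr2b, 7.49 (SE 0.28, adjusted p = 7.42e-21) for Fcgr3 and 9.18 (SE 0.40, adjusted p = 4.13e-19) for Fcgr4. Fcer1g was 5.15 higher (SE 0.22, adjusted p = 1.66e-19). The 4 receptors passed the low-count filter of this fit through their counts in monocytes/macrophages. Their adjusted p-values against T cells, mature DCs and NK cells therefore add no support to the ranges of arms given above. In T cells the 539 cells together held 4 UMIs of Fcgr1, 8 of Fcgr2b, 10 of Fcgr3 and 1 of Fcgr4. For Fcgr4 the ratio of pooled CPM was 622 with a 95% counting interval of 112 to 24574. The SEs were computed back from the F statistic of the test and do not show the counting error of so few UMIs. Against mature DCs, where 45.8% of genes were called, 26.0% as higher and 19.8% as lower in monocytes/macrophages, all 5 genes were again higher in edgeR, by 6.74 (Fcgr4, adjusted p = 1.91e-12) to 9.11 (Fcgr3, adjusted p = 2.40e-15) for the receptors and by 3.98 (adjusted p = 4.98e-13) for Fcer1g. Since only 1 to 5 UMIs of each receptor were found in the 148 mature DCs, the ratios of pooled CPM are wide: 711-fold for Fcgr3 with a 95% interval of 128 to 28082, and 149-fold for Fcgr2b with an interval of 63.6 to 457. These intervals cover counting error only.

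NK cells held the chain with few UMIs of the Fc gamma receptors that signal through it. Fcer1g measured 3116 CPM in the long anti-MIF arm, 2532 in the long anti–PD-1 arm, 2856 in the short isotype arm and 2267 in the short anti–PD-1 arm, 4 NK samples of 11, 10, 14 and 73 cells. All were far above the highest T cell arm, since Fcer1g in T cells lay between 27.2 and 231 CPM with a median of 119. NK cells were 4.35 log2 units above T cells (SE 0.25, edgeR adjusted p = 1.03e-13) and 3.18 above mature DCs (SE 0.30, edgeR adjusted p = 3.86e-10). Of all genes, 7.93% were called between NK and T cells, 3.25% as higher and 4.68% as lower in NK cells. Against mature DCs 41.5% were called, 19.5% as higher and 22.0% as lower.

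Fcer1g was only 0.80 log2 units higher in monocytes/macrophages than in NK cells (SE 0.24, edgeR adjusted p = 0.00739), where 41.4% of genes were called, 25.6% as higher and 15.8% as lower. The monocyte/macrophage value was above the NK value in 4 of 4 arms that held both. The call was lost under other settings, since the difference was 0.44 (adjusted p = 0.130) with upper quartile normalization, 0.59 (adjusted p = 0.135) in DESeq2 and 0.55 (edgeR adjusted p = 0.106) without the short anti–PD-1 arm, which held 73 of the 136 NK cells. It also missed the threshold with stricter gates (0.87, edgeR adjusted p = 0.0607) and in the short cohort alone (0.62, edgeR adjusted p = 0.0502). Upper quartile normalization moved the median log2 difference of all genes in this comparison from 0.13 to -0.21, and measured from that median Fcer1g was 0.67 higher with the TMM normalization used throughout, 0.65 with upper quartile normalization and 0.62 in DESeq2. The calls that were higher in monocytes/macrophages made up 61.9% with TMM and 44.1% with upper quartile normalization.

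Of the receptors, Fcgr3, the one that mouse NK cells are known to carry, had the most UMIs in NK cells, although these were few. The 4 receptors entered the fits between lineages through their counts in monocytes/macrophages. Tests on them among NK cells, T cells and mature DCs rest on the few UMIs given beside them, and no conclusion is drawn from those tests. Fcgr3 measured 0, 12.7, 32.5 and 19.1 CPM in the 4 NK samples (long anti-MIF, long anti–PD-1, short isotype and short anti–PD-1), which come from 0, 1, 3 and 9 UMIs. In T cells it lay between 0 and 18.7 CPM with a median of 2.01. The ranges overlapped, since the long anti-MIF sample had none. The difference was 2.39 log2 units (SE 0.67, edgeR adjusted p = 0.0201), with NK cells higher in 3 of 4 arms, and it was lost without the short isotype arm (2.12, edgeR adjusted p = 0.0986), without the short anti–PD-1 arm (1.94, edgeR adjusted p = 0.342) and within either cohort alone (1.10 and 2.42, edgeR adjusted p = 0.870 and 0.0714). It was also lost with stricter gates (2.47, edgeR adjusted p = 0.0713), and it had the opposite sign where cells that passed several gates were assigned in the order T, NK, mature DC and monocyte/macrophage in place of being left out (-0.70, edgeR adjusted p = 0.605). Pooled over all arms, 22 UMIs in 136 NK cells gave 24.3 CPM (95% interval 15.2 to 36.8) and 10 UMIs in 539 T cells gave 3.55 CPM (1.70 to 6.54). With every cell thinned to 2000 UMIs, 6.98% of NK cells (exact binomial 95% interval 3.24% to 12.8%) and 0.637% of T cells (0.132% to 1.85%) held a UMI of Fcgr3, compared with 57.7% of monocytes/macrophages. Of the 9 NK cells with a UMI, 5 came from arms with fewer than 10 NK cells, 3 of them from the long anti–PD-1/anti-MIF arm, and over the 4 larger samples the median share was 2.17%. Thinning left out 7 NK cells and 68 T cells, and without it the pooled shares were 11.8%, 1.48% and 86.5%.

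Fcgr1 had 0 UMIs in 136 NK cells, so that monocytes/macrophages were at least 125-fold higher, with 3 UMIs over all NK cells taken as the floor. Fcgr2b and Fcgr4 had 5 and 4 UMIs in NK cells, and neither passed the test against T cells (edgeR adjusted p = 0.977 and 0.101). Monocytes/macrophages exceeded NK cells by 7.66 log2 units in Fcgr2b (SE 0.44, edgeR adjusted p = 1.90e-15), by 5.10 in Fcgr3 (SE 0.36, adjusted p = 2.58e-13) and by 5.64 in Fcgr4 (SE 0.48, adjusted p = 1.92e-11). Mature DCs held 1 UMI of Fcgr3 and NK cells 22, which gave a ratio of pooled CPM of 31.4 with a 95% counting interval of 5.08 to 1296. The edgeR call (adjusted p = 0.00381) rests on these few UMIs, and no conclusion is drawn from it. It was lost within either cohort alone (edgeR adjusted p = 0.444 and 0.130) and with gates in order (edgeR adjusted p = 0.0756). With gates in order Fcgr1 passed as lower in NK than in T cells (edgeR adjusted p = 0.0121). Without the short isotype arm Fcgr4 passed as higher in NK cells than in mature DCs (edgeR adjusted p = 0.0433). Over all arms under the main gates, Fcgr1 had 0 UMIs in NK cells, and Fcgr4 had 4 there against 2 in mature DCs. Neither call therefore decides a difference. The calls that were higher in NK cells made up 41.0% against T cells, compared with 51.5% in DESeq2 and 50.1% with upper quartile normalization. Against mature DCs they made up 46.9%, compared with 52.5% in DESeq2 and 57.8% with upper quartile normalization.

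Mature DCs, which migrate to lymph nodes and present antigen to T cells there, had almost no Fc gamma receptor UMIs. Fcer1g measured 145 CPM in the long isotype arm, 289 with long anti–PD-1, 247 with long anti-MIF and 175 in the short isotype arm. These values overlapped those of T cells over all arms, but mature DCs were higher in 4 of 4 arms that held both. Fcer1g was 1.17 log2 units higher than in T cells (SE 0.29, edgeR adjusted p = 0.00116), in a comparison where 50.2% of genes were called, 24.3% as higher and 25.9% as lower. It was 0.78 without the long anti–PD-1 arm (edgeR adjusted p = 0.0531) and 0.52 in the short cohort alone (edgeR adjusted p = 0.498). None of the 4 receptors passed the test between mature DCs and T cells (edgeR adjusted p from 0.171 to 0.744). In the short cohort alone Fcgr4 passed it (edgeR adjusted p = 0.0136), but on 2 UMIs in mature DCs and 0 in T cells, which decides no difference. In the long cohort alone the Fcgr4 difference was -2.44 (edgeR adjusted p = 0.480). With cells assigned to gates in order, as above, the 2 to 16 cells of each arm that passed both the T cell and the monocyte/macrophage gate count as T cells, and these low levels moved. Fcgr1, Fcgr2b and Fcgr3, with only 4, 5 and 1 UMIs in mature DCs before the change of gates, then passed as lower in mature DCs than in T cells (edgeR adjusted p = 0.0313, 0.00612 and 0.00178), and the Fcer1g difference was -0.05 (edgeR adjusted p = 0.879). Since the T cells then included cells of the monocyte/macrophage gate, the receptor calls decide no difference between mature DCs and T cells.

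Smaller leukocyte groups, gated on further markers, are given as pooled values without a test. The 78 neutrophil-gated cells (S100a8, S100a9 and Csf3r) held Fcgr3 at 388 CPM and Fcer1g at 2349 CPM, with Fcgr4 at 99.6, Fcgr2b at 92.7 and Fcgr1 at 72.1 CPM. Their Fcgr3 was 0.706 times that of monocytes/macrophages (95% interval 0.582 to 0.8498), while their Fcgr1 was 0.174 times it (0.107 to 0.266). Of these cells, 6 of the 31 in the long cohort and 9 of the 47 in the short cohort also passed the monocyte/macrophage gate, so the groups set side by side share cells. The 166 cDC1-gated cells (Xcr1 or Clec9a) held Fcgr2b at 268, Fcgr3 at 189, Fcgr1 at 177 and Fcgr4 at 135 CPM, but 31 of the 93 in the long cohort and 40 of the 73 in the short cohort also passed the monocyte/macrophage gate. In 95 plasmacytoid DC-gated cells (Siglech), Fcgr2b stood at 68.4 CPM beside Fcer1g at 1294 CPM, with 8 UMIs of Fcgr1, 10 of Fcgr3 and 1 of Fcgr4. The 10 UMIs of Fcgr3 came from 3 cells. In this gate 4 of the 46 cells in the long cohort and 5 of the 49 in the short cohort also passed the monocyte/macrophage gate. In 29 B cells (Cd79a and Ms4a1), the inhibitory receptor Fcgr2b was the only one of the 4 with UMIs, 10 in all or 103 CPM (95% interval 49.5 to 190), and 0 UMIs of each of the others allowed up to 38.1 CPM.

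Genes of Fc receptor signaling were taken from lists of 64 genes in 4 groups. Of the 28 ITAM kinases and adaptors, 27 were tested between lineages, and 17 were higher and 8 lower in monocytes/macrophages than in T cells, with a median log2 difference of 1.08 compared with 0.01 over all genes. Of all genes 31.7% were higher and 29.6% lower, so the share of the list that was lower was that of all genes. Those that fell most are known from T cell receptor signaling: the kinases Zap70 (log2 difference -9.79, as in the parentheses that follow) and Lck (-9.04) and the adaptor Lat (-9.60). Card9, an adaptor that works below Syk, had 35.2 to 67.0 CPM in monocytes/macrophages and 0 UMIs in every T cell and NK arm. Syk, the kinase that docks on Fcer1g, had a median of 218 CPM in monocytes/macrophages, 136 in mature DCs, 41.7 in NK cells and 1.39 in T cells. The order of Zap70, the other kinase of the Syk family, was the opposite, with medians of 225 CPM in T cells, 81.4 in NK cells and 0 in the remaining lineages.

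Of 16 tested inhibitory phosphatases, adaptors and ITIM receptors, 15 were higher in monocytes/macrophages than in T cells and none lower, with a median of 4.51. The ITIM receptor Cd300a led with 8.34. Inpp5d, the phosphatase used by Fcgr2b, measured 217 CPM in monocytes/macrophages, 239 in NK cells, 184 in T cells and 45.3 in mature DCs at the median. Of 5 tested receptors that pair with Fcer1g, 4 were higher than in T cells, led by the C-type lectin Clec4e with 9.57. Among the 12 other Fc receptors 2 were tested and 1 was higher. The neonatal receptor Fcgrt reached a median of 27.0 CPM in monocytes/macrophages, while Fcer1a and Ms4a2, the other subunits of the IgE receptor, had medians of 0 in all 4 lineages. Upper quartile normalization moved the share of calls that were higher in monocytes/macrophages than in T cells from 51.7% to 39.7%.

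Against NK cells, 13 ITAM genes were higher in monocytes/macrophages and 6 lower, 13 of 16 inhibitory genes were higher, and 4 of 5 partners were higher, while 1, Ncr1, was lower by the gate itself. Of all genes 25.6% were higher and 15.8% lower. Lck (-8.34) and Zap70 (-8.31) were again among the lowest. The lectin Clec4n, the ITIM receptor Pirb and the adaptor Dok3, with medians of 192, 174 and 118 CPM in monocytes/macrophages, had 0 UMIs in every NK arm. Against mature DCs 15 ITAM genes were higher and 5 lower, 14 inhibitory genes higher and 1 lower, and 3 partners higher, beside 26.0% of all genes higher and 19.8% lower. Clec4n, the ITIM receptor Cd300lf and the adaptor Lcp2 had 0 UMIs in every mature DC arm, compared with medians of 192, 206 and 168 CPM, while Cd247 (-4.33), Plcg1 (-2.64) and the inhibitory adaptor Dok1 (-2.22) were lower in monocytes/macrophages.

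Between NK and T cells, 8 of the ITAM list were higher and 5 lower in NK cells, of the inhibitory list 1 was higher, and of the partners Clec4e was higher (4.23), from a single NK arm with 16.9 CPM and medians of 0 in both lineages, and Ncr1 by the gate itself. Of all genes 3.25% were higher and 4.68% lower. Tyrobp, an ITAM chain of the same kind as Fcer1g, was 6.13 higher in NK cells, with medians of 3082 and 33.1 CPM. Lat (-3.12) and Zap70 (-1.49) were lower, and Plcg1, with a median of 72.3 CPM in T cells, had 0 UMIs in every NK arm. Between NK cells and mature DCs 11 ITAM genes were higher and 11 lower and 5 inhibitory genes higher and 4 lower, beside 19.5% and 22.0% of all genes. Lck and Lcp2, at 272 and 178 CPM in NK cells, had 0 UMIs in mature DCs, and Pirb, Pira2 and Card9, at 97.0, 41.4 and 32.4 CPM in mature DCs, had 0 UMIs in NK cells. Between mature DCs and T cells 14 ITAM genes were higher and 11 lower and 5 of 16 inhibitory genes higher and 5 lower, the latter shares near those of all genes, 24.3% and 25.9%. Pira2 (5.89) and Pirb (5.84) rose, and Lck, Zap70 and Lcp2 had 0 UMIs in every mature DC arm.

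Within the monocyte/macrophage gate, cells with C1qb and without Ly6c2 were compared with cells with Ly6c2 and without C1qb. Ly6c2 marks inflammatory monocytes and C1qb, a subunit of complement C1q, marks macrophages. The inhibitory Fcgr2b and the activating Fcgr4 were higher in the C1qb+ cells, the high-affinity Fcgr1 was lower, and Fcgr3 and Fcer1g did not pass the test. Of the 8675 genes tested, 27.4% were called, 11.9% as higher and 15.5% as lower in C1qb+ cells. The 8 arms held 469 C1qb+ cells and 1647 Ly6c2+ cells, and the 7 C1qb+ cells of the long isotype arm were too few to enter the test, which left 7 arms with 12 to 215 C1qb+ cells each.

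Fcgr2b in C1qb+ cells measured 482, 788 and 618 CPM in the long arms after isotype, and 680, 846, 845 and 1069 CPM under short treatment. In Ly6c2+ cells it measured 462, 345, 587 and 441 CPM under long treatment, compared with 416.5, 342, 465 and 407 CPM under short treatment. C1qb+ cells were higher in 7 of 7 arms, and the ranges overlapped only through the long anti–PD-1 value of C1qb+ cells, which fell below the long anti-MIF value of Ly6c2+ cells. The log2 difference was 0.75 (SE 0.12, edgeR adjusted p = 7.64e-05). In the long cohort alone it was 0.46 (edgeR adjusted p = 0.0609).

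Fcgr4 ranged from 135 to 418 CPM in C1qb+ cells with a median of 269 and from 87.0 to 194 CPM in Ly6c2+ cells with a median of 160.3. It was higher in 7 of 7 arms although the ranges overlapped, with a log2 difference of 0.63 (SE 0.15, edgeR adjusted p = 0.00278), and 0.51 in the short cohort alone (edgeR adjusted p = 0.0516). Fcgr1 ranged from 254 to 414 CPM in C1qb+ cells with a median of 297 and from 303 to 552 CPM in Ly6c2+ cells with a median of 431. It was lower in 6 of 7 arms, by 0.45 on the log2 scale (SE 0.12, edgeR adjusted p = 0.00637). In the short cohort alone the Fcgr1 difference was -0.24 (edgeR adjusted p = 0.348), and the exception was the short anti–PD-1/anti-MIF arm, where 12 C1qb+ cells measured 414 CPM and Ly6c2+ cells 380 CPM.

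Fcgr3 differed by 0.15 (SE 0.10, edgeR adjusted p = 0.295) and Fcer1g by 0.22 (SE 0.09, edgeR adjusted p = 0.0642), both higher in 6 of 7 arms. Fcer1g passed the test with upper quartile normalization (0.35, adjusted p = 0.00449), in DESeq2 (0.28, adjusted p = 0.0317) and without arm as a block (0.34, edgeR adjusted p = 0.0242), as well as without the long isotype arm (0.26, edgeR adjusted p = 0.0332) or the short anti–PD-1 arm (0.26, edgeR adjusted p = 0.0479). Upper quartile normalization moved the median of all genes from -0.02 to 0.11. Measured from that median, Fcer1g was 0.24 higher under both normalizations and Fcgr1 0.43 lower under both. The split of all calls moved from 43.4% higher with TMM to 58.9% higher with upper quartile normalization. Median UMIs per cell differed between the classes and arms, from 4701 to 12984 in C1qb+ cells of the 7 arms and from 6173 to 10852 in Ly6c2+ cells, and the part of depth was not tested.

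**Figure D2:**
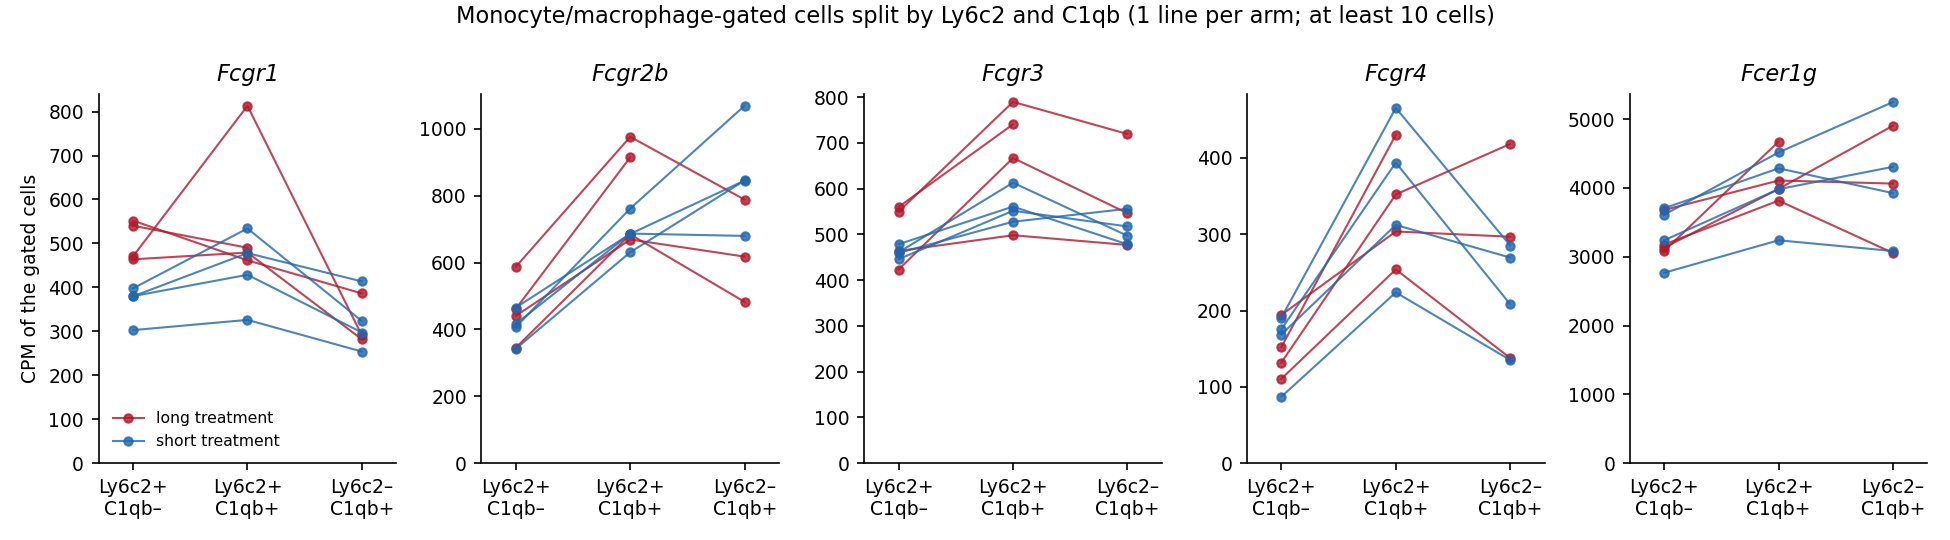
CPM of each gene in Ly6c2+ C1qb-, Ly6c2+ C1qb+ and Ly6c2- C1qb+ cells of the monocyte/macrophage gate, with 1 line per arm, colored by cohort, through the classes with at least 10 cells. Between the outer classes Fcgr2b and Fcgr4 were higher in C1qb+ cells in 7 of 7 arms and Fcgr1 lower in 6 of 7.

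Cells with both markers had the highest median of Fcgr4 among the 3 classes, 332 CPM with a range of 224 to 466 in the 8 arms, although C1qb+ Ly6c2- cells were higher in the long anti–PD-1 arm, with 418 against 352 CPM, and in the long isotype arm, with 7 such cells. Cells with both markers held Fcgr2b between 631 and 976 with a median of 686. Their Fcgr1 lay between 326 and 813 CPM with a median of 479. Their median UMIs per cell lay between 7400.5 and 13402, and the part of depth was not tested.

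Of the 23 ITAM kinases and adaptors tested between C1qb+ and Ly6c2+ cells, 2 were higher and 13 lower, with a median of -0.44 compared with -0.02 over all genes. Of all genes 11.9% were higher and 15.5% lower, so the share of the list that was higher was near that of all genes. With upper quartile normalization 2 were higher and 11 lower, and in DESeq2 2 and 12. The adaptor Blnk was among the 2 that rose, by 3.02 (SE 0.33, edgeR adjusted p = 5.26e-07), from 4.97 to 51.1 CPM at the median. Median levels were 602 against 885 CPM for the Src family kinase Lyn, 116 against 232 CPM for its relative Fgr, and 171 against 235 CPM for Syk. Of 16 inhibitory genes 4 were higher and 5 lower, and 5 and 4 both with upper quartile normalization and in DESeq2. Cd72 (3.13) and Siglece (1.14) rose while Cd300a fell by 1.45. Of 4 partners of Fcer1g 2 fell, Clec4e by 2.33 and Clec4d by 1.43, and with upper quartile normalization 1 more was called, Clec4n, as higher.

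Among the treatments, no member of the set passed the test in monocytes/macrophages, and neither did any other gene in the main edgeR fit. Of 9577 genes tested, 0.0% were called for anti-MIF and 0.0% for anti–PD-1 in the model with cohort, anti–PD-1 and anti-MIF as additive terms over 8 arms. At an unadjusted p below 0.05 there were 653 genes for anti-MIF and 471 for anti–PD-1, and DESeq2 called 15 and 1. Without the filter on low counts edgeR called 45 and 16. Both contrasts use the same 8 arms, so they share samples. Of the 5 genes, only Fcgr2b lay to one side in all 4 matched pairs of arms with each antibody.

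Fcgr2b measured 557, 470.2, 803 and 547 CPM in the arms of the long cohort. In the arms of the short cohort it measured 509, 435, 548 and 517.5 CPM. It was higher with anti-MIF than without in 4 of 4 matched pairs of arms and lower with anti–PD-1 than without in 4 of 4, although the groups overlapped, with 517.5 to 803 CPM with anti-MIF against 435 to 557 without. The log2 differences were 0.23 with anti-MIF (SE 0.12, unadjusted p = 0.0812, edgeR adjusted p = 0.754) and -0.26 with anti–PD-1 (SE 0.12, unadjusted p = 0.0565, edgeR adjusted p = 0.930). The interaction of anti-MIF with cohort was 0.25 (SE 0.22, edgeR adjusted p = 0.728), in a fit that called 0.0209% of genes, 0.0104% in each direction.

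The share of C1qb+ Ly6c2- cells, in which Fcgr2b is high, also differed between arms. It was 8.54%, 16.9%, 44.1% and 26.2% under long treatment, compared with 24.2%, 4.27%, 10.3% and 4.76% under short treatment. Within Ly6c2+ C1qb- cells, a comparison added after these shares had been seen, Fcgr2b was again higher with anti-MIF in 4 of 4 pairs and lower with anti–PD-1 in 4 of 4, in the values given above. There the log2 difference was 0.25 with anti-MIF (SE 0.11, edgeR unadjusted p = 0.0495, adjusted p = 0.818). With anti–PD-1 it was -0.31 (SE 0.11, edgeR unadjusted p = 0.0168, adjusted p = 0.9999). Median UMIs per monocyte/macrophage-gated cell were highest in the long anti-MIF arm with 12258.5, compared with 8608.5 to 10473 in the other long arms and 6365.5 to 7678 in the short arms, and the part of depth was not tested.

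**Figure D3:**
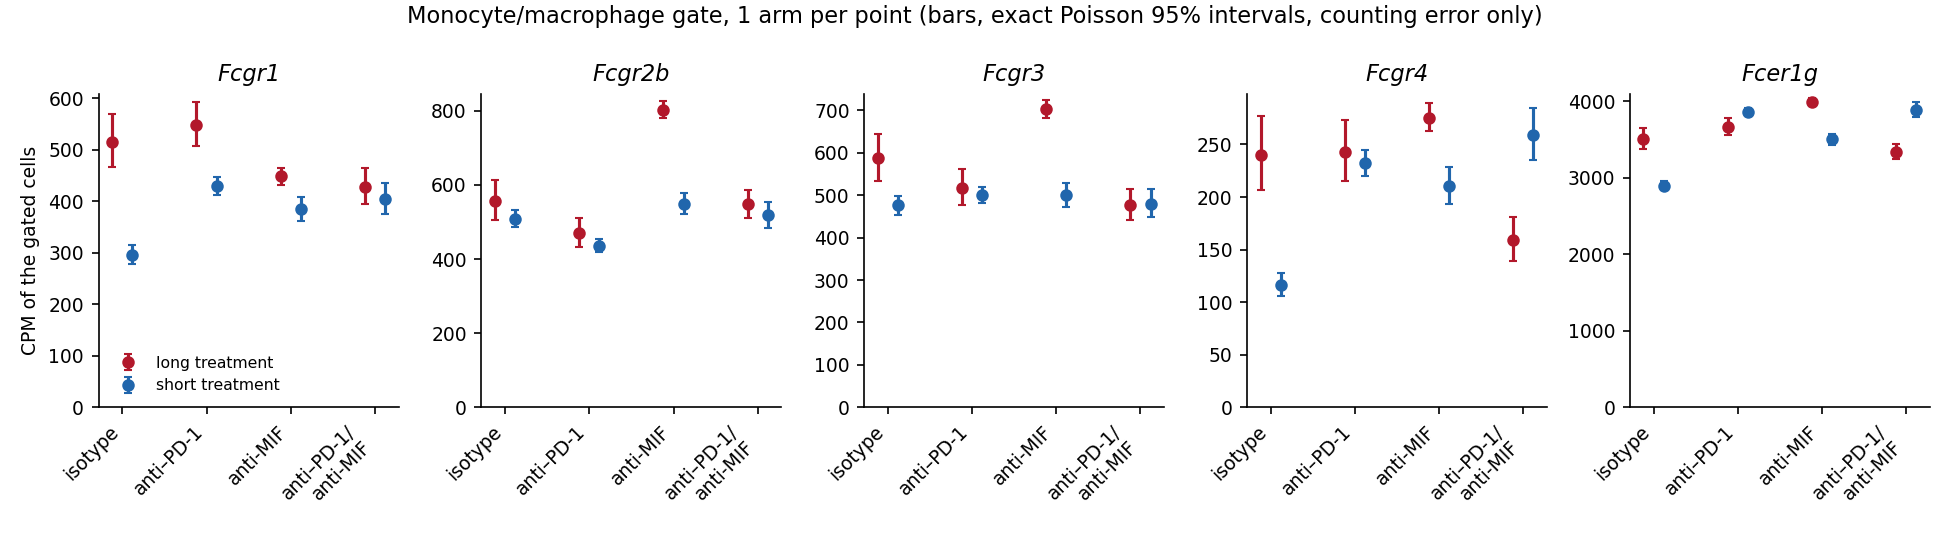
CPM of each gene in monocyte/macrophage-gated cells of the 8 hashtag arms, with exact Poisson 95% intervals that cover counting error only. Fcgr2b is highest in the long anti-MIF arm at 803 CPM, as are Fcgr3, Fcgr4 and Fcer1g in the same arm. Fcgr1, Fcgr3, Fcgr4 and Fcer1g are lowest in the short isotype arm, Fcgr3 by little.

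Fcgr1, the high-affinity receptor, measured 516, 549, 448 and 428 CPM under long treatment, compared with 296, 429, 385 and 404 CPM under short treatment. The short isotype arm was the lowest. Fcgr1 was higher with anti–PD-1 in 3 of 4 pairs (log2 difference 0.18, SE 0.14, edgeR adjusted p = 0.944) and with anti-MIF in 1 of 4 (-0.12, SE 0.14, edgeR adjusted p = 0.898). Fcgr4 measured 239.8, 243, 276 and 159 CPM under long treatment, compared with 116, 232, 211 and 259 CPM under short treatment. Its extremes were the short isotype arm and the long anti-MIF arm. Its differences of 0.12 with anti-MIF (SE 0.24, edgeR adjusted p = 0.953) and 0.16 with anti–PD-1 (SE 0.24, edgeR adjusted p = 0.977) turned to -0.16 and -0.13 without the short isotype arm.

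Fcgr3 differed little among the arms of the short cohort, where it measured 476, 499, 499.7 and 479.5 CPM. In the long cohort it measured 587, 517, 703 and 477 CPM, so that the isotype and anti-MIF arms were high. Its differences were -0.01 with anti-MIF (SE 0.12, edgeR adjusted p = 0.998) and -0.16 with anti–PD-1 (SE 0.12, edgeR adjusted p = 0.944). Fcer1g measured 3511, 3662, 3989 and 3339 CPM under long treatment, compared with 2899, 3860, 3500.5 and 3889 CPM under short treatment. The short isotype arm was again lowest. Its differences were 0.04 with anti-MIF (SE 0.11, edgeR adjusted p = 0.969) and 0.12 with anti–PD-1 (SE 0.11, edgeR adjusted p = 0.952). In edgeR none of the 23 ITAM genes, 16 inhibitory genes, 4 Fcer1g partners or 3 other Fc receptors tested passed with either antibody. DESeq2 called 1 ITAM gene, the kinase Fyn (-0.77), and 1 partner, the lectin Clec4d (-0.83), both lower with anti-MIF and named here after their values had been seen.

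Between cohorts, 7.82% of genes were called, 3.46% as higher and 4.36% as lower in the long cohort, and no member was among them. Fcgr1 and Fcgr2b were higher in the long cohort in 4 of 4 arms, with log2 differences of 0.35 (SE 0.14, edgeR adjusted p = 0.132) and 0.21 (SE 0.12, edgeR adjusted p = 0.279). For Fcgr1 the ranges, 428 to 549 against 296 to 429 CPM, overlapped by about 1 CPM. Fcgr3 and Fcgr4 were higher in 3 of 4 arms (0.20 and 0.19, edgeR adjusted p = 0.313 and 0.642) and Fcer1g in 2 of 4 (0.03, edgeR adjusted p = 0.889). In Ly6c2+ C1qb- cells alone the Fcgr1 difference was 0.48 (SE 0.13, edgeR adjusted p = 0.0528). The count of genes called between cohorts was 749 in all, 1 without the long anti–PD-1 arm, 27 without the short anti–PD-1 arm and 14 without the short anti-MIF arm, and it was 199 without the long anti-MIF arm, 470 without the long anti–PD-1/anti-MIF arm and 48 without the short one.

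Of the signaling lists, the inhibitory receptor Cd72 (edgeR adjusted p = 0.0260), Fcgrt (1.42) and the Fcer1g partner Pira2 (0.75) were higher in the long cohort, and Malt1 (-0.80), Fyn (-0.65) and Cbl (-0.57) were lower. In these lists 4 of 23 ITAM genes were lower and none higher, compared with 4 lower and 1 higher both with upper quartile normalization and in DESeq2, and 2 of 16 inhibitory genes were higher and none lower. The split of all calls was 44.2% higher with TMM and 58.0% with upper quartile normalization. The 5 neutrophil markers summed to 1123 CPM in monocyte/macrophage-gated cells of the long cohort and 399 CPM in the short cohort, with S100a8 the most abundant. Without cells that passed the neutrophil, plasmacytoid DC, cDC1 or B cell gate, the Fcgr1 difference was 0.40 (edgeR adjusted p = 0.102) and that of Fcgr3 0.25 (edgeR adjusted p = 0.196).

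**Figure D4:**
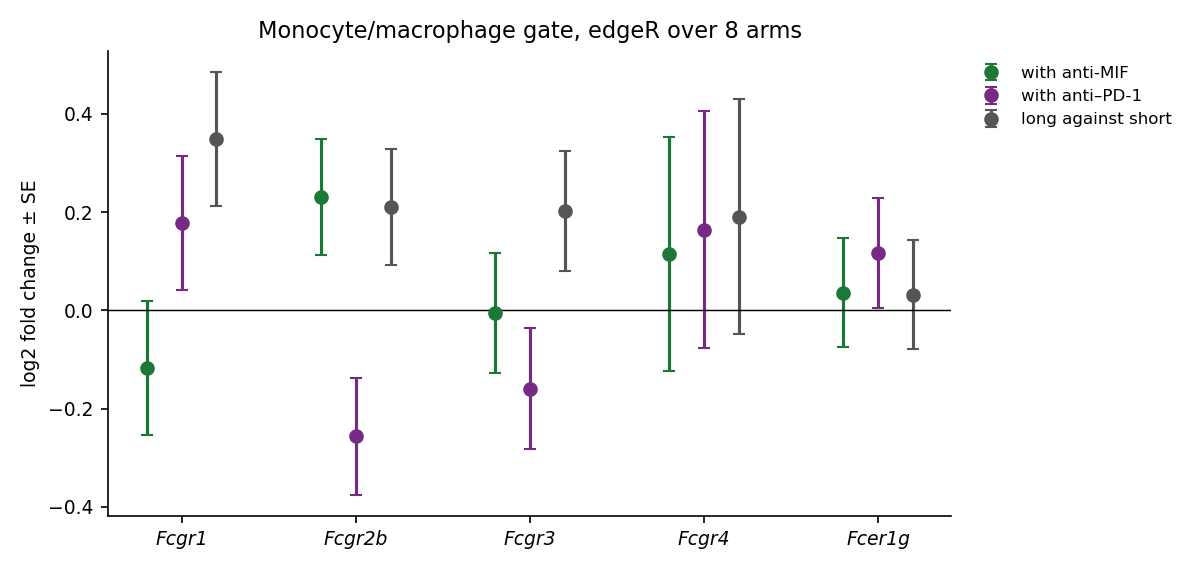
Log2 differences of each gene in monocyte/macrophage-gated cells with anti-MIF, with anti–PD-1 and between cohorts, from the additive edgeR model over 8 arms. Bars show 1 SE, computed from the F statistic of the test. No difference passed the test, and the widest bars are those of Fcgr4.

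The balance of activating to inhibitory receptors is often given as a ratio. Here it is the UMIs of Fcgr1, Fcgr3 and Fcgr4 divided by those of Fcgr2b in monocyte/macrophage-gated cells, as a description without a test. Under long treatment it was 2.41 (95% interval 2.15 to 2.70), 2.78 (2.52 to 3.08), 1.78 (1.72 to 1.84) and 1.94 (1.78 to 2.12). Under short treatment it was 1.75 (1.65 to 1.85), 2.67 (2.55 to 2.79), 2.00 (1.87 to 2.13) and 2.21 (2.04 to 2.39). The anti–PD-1 arm was highest in both cohorts, and the arms with anti–PD-1 were above their partners in 4 of 4 pairs. With anti-MIF the ratio was lower in 3 of 4 pairs, the exception being the short isotype arm, which was the lowest of its cohort.

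In Ly6c2+ C1qb- cells alone the ratio was 2.71, 2.97, 2.21 and 2.36 under long treatment, compared with 2.01, 3.07, 2.17 and 2.53 under short treatment. The anti–PD-1 arm was again the highest in both. In C1qb+ Ly6c2- cells the ratio was 2.60, 1.78 and 1.45 in the long arms after isotype. In the long isotype arm, which held only 7 such cells, it was 6.0 (95% interval 2.50 to 17.4), above that of its Ly6c2+ cells. Under short treatment it was 1.33, 1.19, 1.26 and 1.17. Each of the 7 values other than that of the long isotype arm was below that of the Ly6c2+ cells of its arm.

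Per cell, with all cells thinned to 2000 UMIs, most monocytes/macrophages held a UMI of at least 1 receptor. None of the 4 was found in 15.0%, 11.8%, 4.98% and 13.7% of cells under long treatment, compared with 18.0%, 13.3%, 11.4% and 14.9% under short treatment. The long anti-MIF arm was lowest and the short isotype arm highest. Cells with both an activating receptor and Fcgr2b made up 50.0%, 42.9%, 60.6% and 41.9% under long treatment, compared with 40.2%, 40.6%, 43.7% and 44.0% under short treatment. Cells with Fcgr2b alone were the rarest combination with a receptor in every arm, at 4.84% to 12.1%. A UMI of any of Fcgr1, Fcgr3 and Fcgr4 counted as activating and only Fcgr2b as inhibitory, which lowers this share by definition. Thinning left out 81 cells of the gate, and at 2000 UMIs a cell without a UMI of a gene may still express it.

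**Figure D5:**
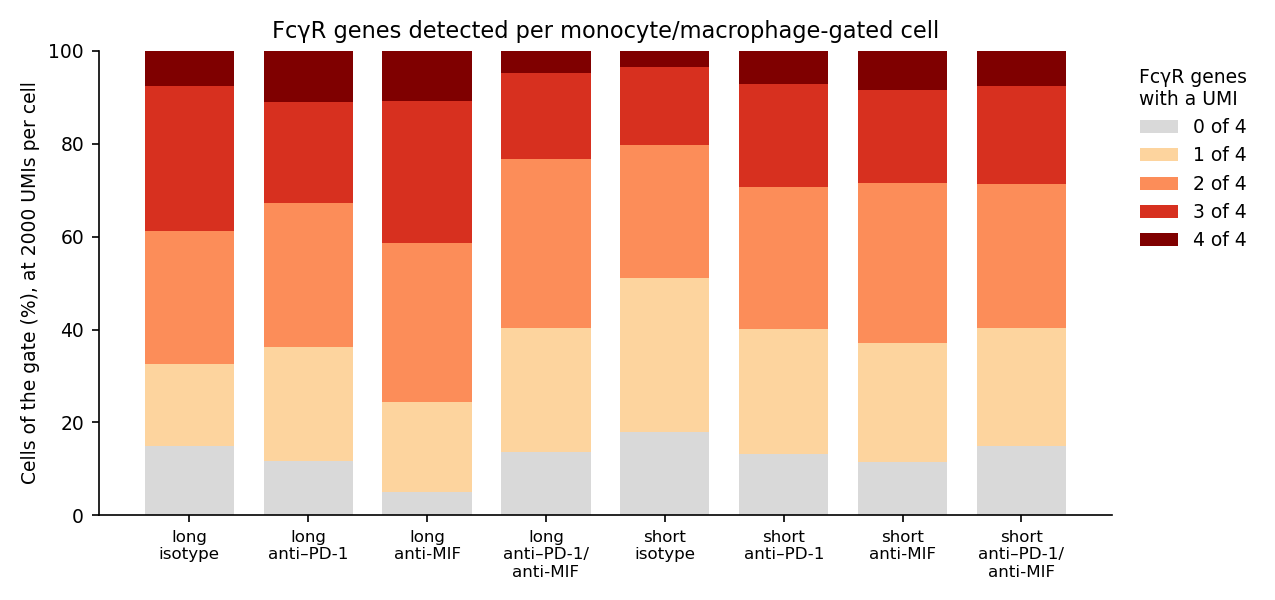
Percentage of monocyte/macrophage-gated cells, thinned to 2000 UMIs, with UMIs of 0, 1, 2, 3 or all 4 Fc gamma receptor genes in each arm. Cells with none make up 4.98% in the long anti-MIF arm and 18.0% in the short isotype arm.

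Over the 24 sums of arm and lineage that enter the lineage fit, the genes most like each member were found by Pearson's r of log2(CPM + 1). The sums share libraries and arms, and r describes them without a test. They span the gated lineages, so r takes in the differences between lineages given above and shows no shared regulation. Fcgr1 was nearest to the interferon-induced Oas1g (0.99), the integrin Itgb5 (0.98), the scavenger receptor Msr1 (0.98), Hp (0.98) and the inhibitory adaptor Dok3 (0.98). Fcgr2b was nearest to the chemokine Ccl2 (0.97), Dok3 (0.96), Aldh3b1 (0.96) and Msr1 (0.96). Fcgr3 was nearest to Arhgap24 (0.95), Prdx5, Apoc2, Nfam1 and Clec4a3 (each 0.94), and Fcgr4 to Cyp4f18 (0.99), Slc11a1 (0.98), Cd300ld (0.97), Ctnnd1 (0.97) and Fn1 (0.97). Fcer1g, which NK cells also hold, had its own neighbors in Mef2c (0.95), Scimp (0.93), Tnfsf12, Rgl1 and Fam49b (each 0.92), and its r with the 4 receptors ran from 0.67 with Fcgr1 to 0.80 with Fcgr3. Among the 4 receptors r ran from 0.89 to 0.95.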

How the data were processed

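Hashtagged cells of 2 pooled 10x 5′ libraries were analysed as UMI counts per gene and cell, which the authors had made with Cell Ranger 7.1.0 on mm10 and deposited unnormalized as filtered matrices. The submitters' processing notes also name Seurat 5.1.0, R 4.3.2 and DESeq2, and the annotation and strand setting are not given in the sources used here. Positions were read from GENCODE vM21. The 5 genes and the lists were chosen with earlier results of these data known.

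Hashtags were called with HTODemux in Seurat 5.3.0 (centered log ratio per hashtag, quantile 0.99). Cells with several hashtags or none were left out, as were cells outside 200 to 5000 genes or above 5% mitochondrial UMIs. No doublet caller was run, so doublets within an arm remain, and free RNA was not subtracted. The files hold a further hashtag that the labels do not name. It enters no test, and its values stand only under the results flagged for a closer look. Gates needed at least 1 UMI of each marker. UMI counts were summed per arm and lineage with at least 10 cells and tested in edgeR 4.0.16 under R 4.3.3 (quasi-likelihood fit, filterByExpr, TMM, Benjamini-Hochberg adjustment over all genes tested, threshold 0.05). Lineages and classes were compared with arm as a block, because the lineages of an arm come from the same tumors. The deviations of monocytes/macrophages and T cells correlated within each of the 8 arms (0.164 to 0.489 over 3712 genes), but were highest with their own arm in only 1 of 8. Treatments were compared in monocytes/macrophages with cohort, anti–PD-1 and anti-MIF as terms over the 8 arms, each 1 sample, so p-values measure the spread between arms. The SE of an edgeR difference is its absolute value divided by the square root of the F statistic. It was not estimated apart from the test. DESeq2 1.42.0 was an alternative. The fits were tested on simulated data. Intervals are exact 95% intervals of counts and cover counting error only. Named genes were the 5 members, the gate markers, the 3 list genes that rose and the 3 that fell most past the threshold in each comparison, and the 5 genes most like each member, of which 1 is not reported here. Syk, Lyn, Fgr, Inpp5d, Fcer1a and Ms4a2, named beside them, were chosen after their values were seen.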

Additional observations from a re-analysis of the deposited data

Results flagged for a closer look

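The files hold a further hashtag, anti-PD1-MIF-DDT, that no sample label names, with 322 cells in the long cohort (229 in the monocyte/macrophage gate) and 993 in the short cohort (649). Its values lay outside every comparison above, and 3 exceeded the counting interval of the isotype arm of the same cohort. Fcgr1 measured 717.2 CPM in its monocytes/macrophages of the long cohort, compared with 516 CPM with isotype. Fcgr4 measured 197.5 CPM and Fcer1g 3333 CPM in the short cohort, compared with 116 and 2899 CPM with isotype, the lowest arm for both genes. The other short arms lay above the further hashtag, with 211 to 259 CPM of Fcgr4 and 3500.5 to 3889 CPM of Fcer1g. Each is 1 sample against 1 sample, the intervals cover counting error only, and the differences were not tested.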

How the results depend on the processing

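Of 1120 values of the 5 genes recomputed under alternatives, 1040 kept their direction and side of the threshold, 10 passed it anew, 18 of the same sign no longer passed and 52 had the opposite sign. Of these, with gates in order, 1 was called anew (Fcgr1 between mature DCs and T cells) and 2 also lost their call (Fcgr3 between NK and T cells, Fcer1g between mature DCs and T cells). All values of monocytes/macrophages against T cells and against mature DCs, 110 in each comparison, kept both. The causes of the changes below were not tested. Depth limits the receptors in NK cells, T cells and mature DCs, where 0 to 22 UMIs stand behind a value.

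Counts of genes called moved by over 1.5 times as follows. In 1 cohort alone they were 1849 for monocytes/macrophages against mature DCs (short), 1473 against NK cells (long), 1907 (long) and 1713 (short) for NK cells against mature DCs, 219 for NK against T cells (long), 1839 for mature DCs against T cells (short), and 1155 (long) and 1314 (short) for C1qb+ against Ly6c2+ cells, whose counts over both cohorts were 3831, 3465, 3473, 663, 4197 and 2375. Stricter gates gave 373 for NK against T cells, 420 between cohorts and 1 for anti-MIF by cohort. Without a filter on low counts there were 45 genes with anti-MIF, 16 with anti–PD-1, 1250 between cohorts and 283 for anti-MIF by cohort, and DESeq2 called 15, 1 and, for anti-MIF by cohort, 48. MULTIseqDemux gave 1140 between cohorts and 1 for anti-MIF by cohort. Ly6c2+ C1qb- cells alone, added after seeing the data, gave 1 with anti-MIF, 469 between cohorts and 0 for anti-MIF by cohort, which was also 0 without cells of the neutrophil, plasmacytoid DC, cDC1 or B gate. Leaving out 1 arm at a time, the counts ran from 2971 to 3834, from 2141 to 3493 (lowest without the short anti–PD-1 arm) and from 4512 to 5242 for monocytes/macrophages against mature DCs, NK and T cells, from 2561 to 3443 and from 398 (without the same arm) to 653 for NK cells against mature DCs and T cells, from 3263 to 4162 for mature DCs against T cells, from 1774 to 2286 for C1qb+ against Ly6c2+ cells, from 0 to 2 with anti-MIF, from 0 to 1 with anti–PD-1, from 1 to 1055 between cohorts and from 0 to 113 for anti-MIF by cohort.

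Median shares of monocytes/macrophages with a UMI of Fcgr1, Fcgr2b, Fcgr3 and Fcgr4 were 78.7%, 76.5%, 84.5% and 58.7% without thinning and 31.0%, 34.1%, 35.1% and 17.7% at 1000 UMIs, where Fcer1g was 92.6%. In NK cells Fcgr3 was 7.68% and Fcer1g 94.1% without thinning, and Fcer1g 74.3% at 1000 UMIs.

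Log2 differences of the opposite sign were these. With anti-MIF, Fcgr4 was -0.036 and Fcer1g -0.0087 with a stricter HTODemux quantile, -0.013 and -0.010 with MULTIseqDemux, Fcgr3 0.044 with upper quartile normalization, Fcer1g -0.00093 without the extra gates and -0.0052 with stricter gates, and Fcgr1 0.033 in Ly6c2+ cells alone. In Ly6c2+ cells alone Fcgr4 was -0.038 and Fcer1g -0.014 between cohorts and Fcer1g 0.097 for anti-MIF by cohort. Without a filter Fcer1g was -0.0022 and 0.025 in these. Between NK and T cells Fcgr1 was 0.13 in DESeq2, Fcgr2b -4.65 with stricter gates, -1.04 in the short cohort and -2.55 with gates in order, Fcgr3 -0.70 with gates in order, and Fcgr4 -2.42 in the long cohort and -1.02 with gates in order. Between NK cells and mature DCs Fcgr2b was -0.0050 with MULTIseqDemux and -3.81 with stricter gates, and Fcgr4 -1.82 in the short cohort. Between mature DCs and T cells Fcgr2b was 0.22 with MULTIseqDemux, 0.30 in the long cohort and 0.40 with at least 5 cells, Fcgr4 -2.44 in the long cohort, and with gates in order Fcgr1 was -1.97, Fcgr4 -1.66 and Fcer1g -0.054. Leaving out 1 arm, Fcer1g ran from -0.041 to 0.11 with anti-MIF, from -0.25 to 0.14 for anti-MIF by cohort and from -0.046 to 0.10 between cohorts, and Fcgr3 from -0.095 to 0.054 with anti-MIF and from -0.074 to 0.34 for anti-MIF by cohort. Fcgr2b ran from -0.62 to 0.56 between NK and T cells. Fcgr4 ran from -1.99 to 5.93 between NK and T cells, from -3.83 to 5.76 between NK cells and mature DCs, from -2.08 to 4.55 between mature DCs and T cells, from -0.16 to 0.38 with anti-MIF, from -0.13 to 0.46 with anti–PD-1 and from -0.084 to 0.46 between cohorts. Without arm as a replicate block Fcer1g passed between C1qb+ and Ly6c2+ cells (0.34, edgeR adjusted p = 0.0242), and no other call on the 5 genes changed with the block.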
